A study of Drosophila melanogaster with 3 samples.

Results

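The genes described here encode 10 insulator and housekeeping promoter factors of Drosophila melanogaster: BEAF-32, CTCF, Cp190, su(Hw), Chro, mod(mdg4), Dref, Trl, pzg and Ibf1. They were chosen by name and are 10 of the 13968 protein-coding genes of the annotation. The samples were 3 biological replicates of 1 group: whole embryos 0 to 14 hours old, males and females pooled, from a transgenic line carrying Trem with eGFP at its C terminus. Chromatin was immunoprecipitated with an anti-GFP antibody and sequenced (ChIP-seq), so the data show where the tagged protein Trem was found on DNA and say nothing of how strongly a gene was transcribed. Whole embryos mix all tissues and stages of that interval, and no untagged embryos, other genotype or other stage were analysed here, so no condition was compared with another. A gene was called bound when any of its annotated transcription start sites (TSSs) had a peak summit within 500 bp. The peak had to be in the list of 7477 peaks that the authors kept after comparing replicates by their irreproducible discovery rate (the IDR list).

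Insulator proteins bind between regulatory domains and help to keep enhancers and chromatin states apart. In flies several of them, and the factors that run with them, sit mainly just upstream of housekeeping genes, often where promoters point away from each other. BEAF-32, CTCF, su(Hw) and Ibf1 bind DNA, Cp190 and mod(mdg4) are BTB-domain partners that such proteins recruit, and Chro is a chromodomain protein of interbands that meets them at promoters. Dref binds the DNA replication-related element (DRE) of housekeeping and proliferation genes, pzg (also known as Z4) is a zinc finger protein found with Dref and with Chro, and Trl encodes the GAGA factor, which opens promoters at GA repeats. Trem itself is a zinc finger protein, known for its part in forming meiotic double-strand breaks.

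All 10 genes were bound in the IDR list, against 5818 of the 13968 protein-coding genes (41.7%). The strongest peak of each gene had a signal value, the authors' own value per peak, by which peaks were ranked within a list, between 152.4 at mod(mdg4) and 1949 at Chro. Their median was 327.7, beside 329.3 over all 5818 bound genes, so the median of the group was close to that of bound genes in general. The individual genes ranged widely. Chro (1949), Cp190 (1395), CTCF (654.5) and Dref (519.5) had peaks stronger than those of 95.4%, 94.2%, 86.2% and 78.2% of bound genes. At pzg the value was 377.6, stronger than at 59.3% of bound genes, and at BEAF-32 it was 277.9, stronger than at 38.5%. Trl (200.3), Ibf1 (188.0), su(Hw) (166.1) and mod(mdg4) (152.4) had weak peaks, stronger than those of 16.1%, 11.9%, 5.98% and 1.96% of bound genes, and the weakest signal in the whole IDR list was 144.4. Among the stronger 50% of IDR peaks, 6 of the 10 genes still had a summit, and those 4 with weak peaks did not. The share was 26.9% of all protein-coding genes. Since all 10 genes were bound, the closer background is bound genes, of which 3761 of 5818 had such a summit.

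**Figure D1:**
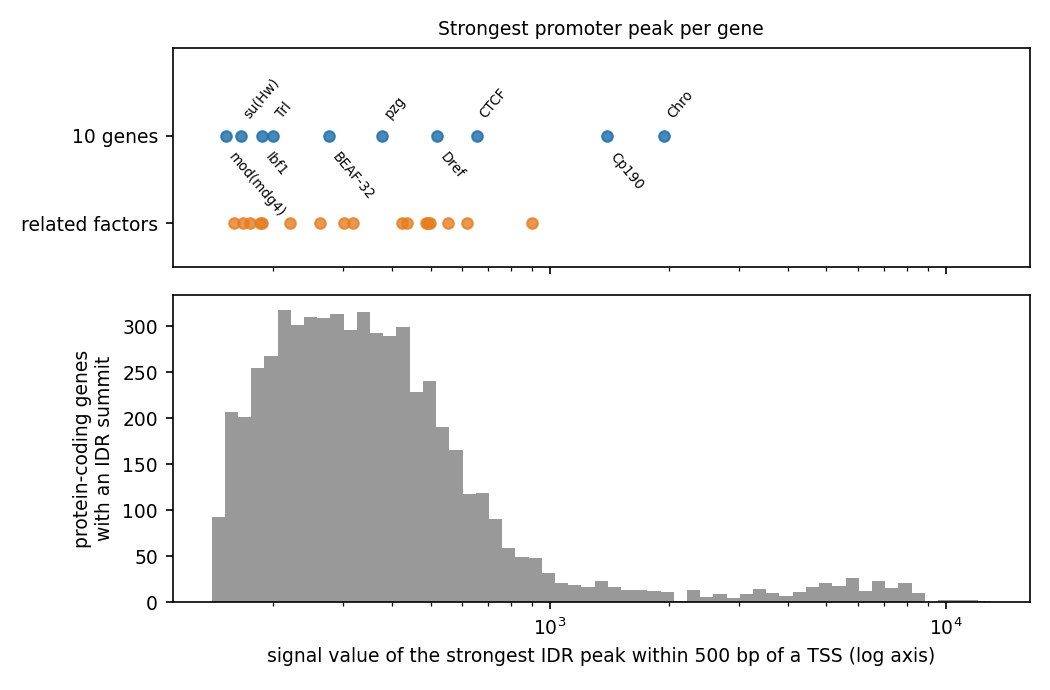
Signal value in the IDR list of the strongest peak within 500 bp of a TSS (x axis, log scale, no unit). The upper panel has 1 point for each of the 10 genes and for each of the 17 bound related factor genes; the lower panel is a histogram of all 5818 bound protein-coding genes. Chro and Cp190 lie beyond the main body of the histogram, and mod(mdg4), su(Hw), Ibf1 and Trl lie near its lower edge.

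The DNA under 6 of these peaks, and under a strong peak inside Trl, is shown to set the recognition sites of the encoded factors beside the positions where Trem was found. Sequences are from the RefSeq genome of the dm6 assembly, plus strand, 5′ to 3′, and lie between exons or in introns, and each run holds the summit of its peak. CTCF and mod(mdg4), a strong and a weak peak, each held the 8-letter DRE, in capitals, at chr3L:7356714-7356819 and chr3R:21377402-21377523:
CTCF: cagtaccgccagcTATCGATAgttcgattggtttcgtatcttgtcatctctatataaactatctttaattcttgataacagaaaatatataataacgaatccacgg
mod(mdg4): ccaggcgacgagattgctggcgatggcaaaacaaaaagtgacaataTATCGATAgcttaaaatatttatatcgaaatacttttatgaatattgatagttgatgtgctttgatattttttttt
The stretch at chr2L:9967230-9967312 is all the DNA between the TSSs of Dref and of RpL13, with the core CGATA of the BEAF-32 site in capitals:
Dref: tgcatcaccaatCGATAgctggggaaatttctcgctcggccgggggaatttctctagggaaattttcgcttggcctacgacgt
A peak at an internal promoter of Trl, chr3L:14757342-14757483, held a run of GAGA sites, GAGAG on either strand, in capitals, which are the sites of the factor that Trl encodes:
Trl: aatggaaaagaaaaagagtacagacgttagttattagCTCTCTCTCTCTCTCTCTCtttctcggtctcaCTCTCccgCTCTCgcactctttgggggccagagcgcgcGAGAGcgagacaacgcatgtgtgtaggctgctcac
None of the motifs searched was found at the strong peak between Cp190 and CG4338 (chr3R:15275258-15275458), at the weak peak between Ibf1 and Ibf2 (chr3R:9258619-9258819), or at the strong peak in an intron of Trl (chr3L:14759419-14759619), and these are printed without capitals:
Cp190: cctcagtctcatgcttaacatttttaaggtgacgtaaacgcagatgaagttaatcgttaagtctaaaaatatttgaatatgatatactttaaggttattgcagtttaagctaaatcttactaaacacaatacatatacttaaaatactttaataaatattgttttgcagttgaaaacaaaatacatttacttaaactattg
Ibf1: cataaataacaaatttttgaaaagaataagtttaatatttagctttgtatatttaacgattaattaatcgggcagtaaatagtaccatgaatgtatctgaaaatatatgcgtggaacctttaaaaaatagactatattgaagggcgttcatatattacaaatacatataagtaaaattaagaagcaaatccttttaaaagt
Trl intron: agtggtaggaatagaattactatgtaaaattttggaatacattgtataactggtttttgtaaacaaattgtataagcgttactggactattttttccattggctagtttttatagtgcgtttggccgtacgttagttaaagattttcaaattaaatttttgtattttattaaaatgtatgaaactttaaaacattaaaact

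Among the DNA-binding insulator proteins, CTCF (FBgn0035769, chr3L:7353578-7356713, minus strand) had the strongest peak. Its summit at chr3L:7356719 lay 6 bp upstream of its only TSS, ranked 701 of 7477 in the IDR list, and ranked 788, 672 and 663 in the lists of replicates 1, 2 and 3, where the signal values were 309.6, 187.5 and 180.4. No other protein-coding gene had a TSS within 500 bp of the summit, and the nearest other annotations were remnants of the transposable element Quasimodo. CTCF encodes a zinc finger protein known as an insulator protein in both flies and vertebrates.

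BEAF-32 (FBgn0015602, chr2R:14770469-14772630, plus strand) had a peak at each of 2 promoters, neither of them strong. One summit lay 86 bp upstream of a TSS (signal 277.9, rank 3519; replicate signals 163.7, 63.0 and 50.5) and the other 7 bp upstream of a downstream TSS (signal 177.9, rank 6109; replicate signals 91.3, 50.7 and 23.7). Both were highest in rank in replicate 1, at 2489 and 5473, and lowest in replicate 3, at 6680 and 17357. An antisense RNA, asRNA:CR42254, starts 113 bp from the first summit and 1 bp from the second. A stronger summit (391.2, rank 2028) stood 974 bp upstream of BEAF-32, outside the window, and only 72 bp upstream of Spred, the divergent neighbour.

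At su(Hw) (FBgn0003567, chr3R:14304455-14308589, minus strand), which encodes the protein that blocks enhancers at gypsy elements, the summit was 389 bp upstream of the TSS and was the farthest from the TSS of its gene among the 13 peaks. Its signal was 166.1 (rank 6528), with 114.1, 29.9 and 42.4 in replicates 1, 2 and 3 and ranks of 4240, 11810 and 8178. The TSS of Polr2I, which encodes a subunit of RNA polymerase II, was nearer, 111 bp from the summit. A pooled-list peak that did not reach the IDR list lay 396 bp downstream of the su(Hw) TSS (signal 84.1, rank 11999 of 30000).

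Ibf1 (FBgn0037670, chr3R:9258964-9260400, plus strand) and its partner Ibf2, whose products bind DNA together and recruit Cp190, are neighbours that point away from each other, with TSSs 463 bp apart. They shared 1 peak, 245 bp upstream of Ibf1 and 218 bp upstream of Ibf2. Its signal was weak at 188.0 (rank 5765), but its ranks in the replicates, 6495, 5517 and 6174, differed by the smallest ratio of any of the peaks seen in all 3 replicates, with signals of 77.4, 59.4 and 53.7. The peak was thus weak in every replicate, and at much the same rank. The replicate 2 summit, however, lay 95 bp from the IDR summit, near the 100 bp limit for counting as the same peak.

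Among the partner proteins, Cp190 (FBgn0000283, chr3R:15270432-15275241, minus strand) and Chro (FBgn0044324, chr3L:22873702-22878984, minus strand) had the strongest peaks of the 10 genes. The Cp190 summit, 117 bp upstream of the TSS, had a signal of 1395 (rank 251), with 795.2, 256.3 and 368.1 in replicates 1, 2 and 3 and ranks of 216, 391 and 254. The Chro summit had a signal of 1949 (rank 187), with 1130, 458.8 and 362.1 in the replicates and ranks of 163, 213 and 258. It lay in the 5′ untranslated region, 61 bp downstream of the TSS, and was the only one of the 13 summits downstream of the nearest TSS of its own gene. Both genes have a divergent neighbour in the window, CG4338 at 164 bp and Ssl1, which encodes a subunit of the transcription factor TFIIH, at 166 bp from the summit.

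The third partner, mod(mdg4) (FBgn0002781, chr3R:21350846-21377401, minus strand), had the weakest promoter peak, although its summit was only 22 bp upstream of the TSS. Its signal was 152.4 (rank 7124), with 54.5, 39.3 and 74.8 in the replicates and ranks of 8887, 8773 and 3947, so it was among the 7477 strongest peaks of replicate 3 only.

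Of the promoter factors, Dref (FBgn0015664, chr2L:9964147-9967229, minus strand) had a strong peak 13 bp upstream of its TSS and 71 bp upstream of that of RpL13, a ribosomal protein gene. Its signal was 519.5 (rank 1148), with 265.8, 125.6 and 121.1 in the replicates and ranks of 1045, 1619 and 1680. pzg (FBgn0259785, chr3L:21286099-21290310, plus strand) had 2 summits, 240 bp (signal 377.6, rank 2170) and 41 bp (signal 249.96, rank 4066) upstream of its TSS. The first lay 103 bp inside the divergent gene CG12974, nearer to the TSS of that gene than to that of pzg. Replicates 1 and 2 had a summit for each, the first at ranks 1386 and 2161 and the second at ranks 8100 and 16780, whereas replicate 3 had a summit at rank 2901 for the second and none within 100 bp of the first. These matches were loose. The replicate 1 and 2 summits lay 51 and 92 bp from the first IDR summit, towards the second. Those of replicates 1, 2 and 3 lay 54, 92 and 90 bp from the second, downstream of the pzg TSS. By these matches the replicates did not place the weight on the same summit.

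Trl (FBgn0013263, chr3L:14747929-14761049, minus strand) had 2 weak peaks at internal promoters, 238 bp and 106 bp upstream of the nearest TSS. The first had a signal of 200.3 (rank 5338) and the widest spread of the 13 peaks, at ranks 10715, 2575 and 26115 with signals of 44.2, 99.4 and 17.5 in replicates 1, 2 and 3. The second, over the GAGA run printed above, had a signal of 194.2 (rank 5547) and ranks of 8485, 5670 and 4209, with signals of 57.6, 58.0 and 71.9. CG42507 begins at the same TSS as the Trl transcripts near the first peak. Just outside the window were summits 941 bp upstream (signal 302.7), 38 bp from the TSS of Mgat4a and 146 bp from that of Tsen34, and 654 bp downstream (signal 156.8).

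**Figure D2:**
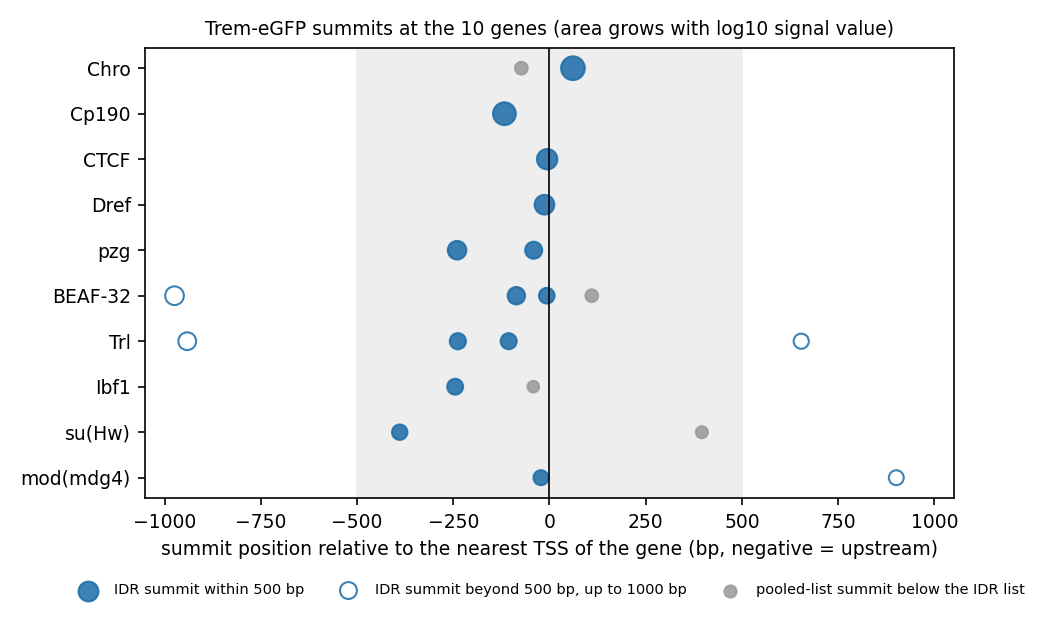
Position of each summit relative to the nearest TSS of its gene (x axis, bp, negative upstream), with 1 row for each of the 10 genes in order of their strongest peak. Filled points are IDR summits within 500 bp (shaded), open points are IDR summits beyond 500 bp and up to 1000 bp away, grey points are pooled-list summits that are not in the IDR list, and point area grows with the signal value. Of the 13 filled points, 12 are upstream and the Chro point is downstream of the TSS of its gene.

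Together the 10 genes had 13 IDR summits in the window. BEAF-32, Trl and pzg had at least 2 each, which makes 3 of 10 genes, against 5.44% of all protein-coding genes and 760 of the 5818 bound genes. BEAF-32 has 3 annotated TSSs and Trl has 4, so their windows cover more DNA. The 2 pzg summits were matched only loosely in the replicates. Of the 13 summits, 12 were upstream and 7 were within 100 bp of the TSS, with a median position of -86 bp. Over the 4694 IDR peaks in the window of a protein-coding TSS, 84.3% were upstream and the median position was -73 bp. In both sets most summits were upstream, but the measures differ. The 13 were measured to a TSS of their own gene, and the 4694 to the nearest protein-coding TSS. A neighbour's TSS was nearer at su(Hw), Ibf1 and the first pzg summit, which lay 103 bp downstream of that of CG12974. The count was 10 with a window of 1000 bp, against 45% of all protein-coding genes, and 9 with 250 bp, against 36.9%, where su(Hw) was lost. It was 9 when only the outermost TSS of each gene was used, against 39.8%, and the gene lost was Trl.

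Most of these genes have a neighbour that starts close by. A head-to-head neighbour is a protein-coding gene on the other strand that starts within 1000 bp and points away. It was present at 7 of the 10 genes, against 36.2% of all protein-coding genes and 3639 of the 5818 bound genes. All 7 were bound, beside 72.0% of genes with such a neighbour and 24.4% of those without. BEAF-32, CTCF and mod(mdg4) were bound without one, although at BEAF-32 the TSS of Spred was 1046 bp away, just past the limit. The TSSs of the pairs were 84 bp apart at Dref and RpL13, 105 bp at Chro and Ssl1, 137 bp at pzg and CG12974, 281 bp at Cp190 and CG4338, 463 bp at Ibf1 and Ibf2, and 500 bp at su(Hw) and Polr2I. At Trl the head-to-head neighbour was Mgat4a, 979 bp away. In all, 8 of the 13 peaks, at 7 genes, also lay within 500 bp of a TSS of another protein-coding gene. In 3 of these, at su(Hw), pzg and Ibf1, the neighbour's TSS was the nearer. The share of all IDR promoter peaks that lie near a further protein-coding gene was not counted, so the 8 of 13 has no background here. A peak within 500 bp of the TSSs of both genes cannot be given to either, so these 7 genes count as bound together with their neighbours. Not all of these peaks lay between TSSs that point away from each other. The Chro summit lay inside Chro, and the first pzg summit inside CG12974. At Trl the peak was shared with CG42507, which starts at the same TSS on the same strand, and not with Mgat4a. Bound genes with a head-to-head neighbour had a median strongest signal of 355.2. Of the 7 genes with such a neighbour, Chro, Cp190, Dref and pzg (377.6) lay above that median, and Trl (200.3), Ibf1 and su(Hw) below it. Chro and Cp190 exceeded 94.2% and 92.9% of the bound genes with a head-to-head neighbour.

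The strongest peaks were found in every replicate at high ranks, while several weak ones were not. Taking as many of the strongest peaks of each replicate as the IDR list holds, 8, 8 and 9 of the 10 genes had a summit in replicates 1, 2 and 3, against 40.6%, 41.4% and 40.4% of all protein-coding genes (mean 40.8% ± 0.498, SD, n = 3). In all 3 replicates 7 of the 10 genes had one, against 34.3% of all protein-coding genes, and the others were su(Hw), present in replicate 1 only, mod(mdg4), present in replicate 3 only, and Trl, absent from replicate 1. In the whole replicate lists of 30000 peaks, 12 of the 13 peaks had a summit within 100 bp in each replicate, beside 86.1% of the 7477 IDR peaks, and the exception was the first pzg peak. Among the strongest 7477 of each replicate 6 of the 13 did so, beside 60.1% of all IDR peaks: those of Chro, Cp190, CTCF, Dref and Ibf1 and the stronger one of BEAF-32. The order Chro, Cp190, CTCF, Dref of the IDR list was kept in replicates 1 and 2, and in replicate 3 Cp190 (254) ranked just above Chro (258), with CTCF and Dref after them. The ranks of Chro and Cp190 thus overlapped between replicates, while those of CTCF (663 to 788) and Dref (1045 to 1680) overlapped with neither of them nor with each other.

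**Figure D3:**
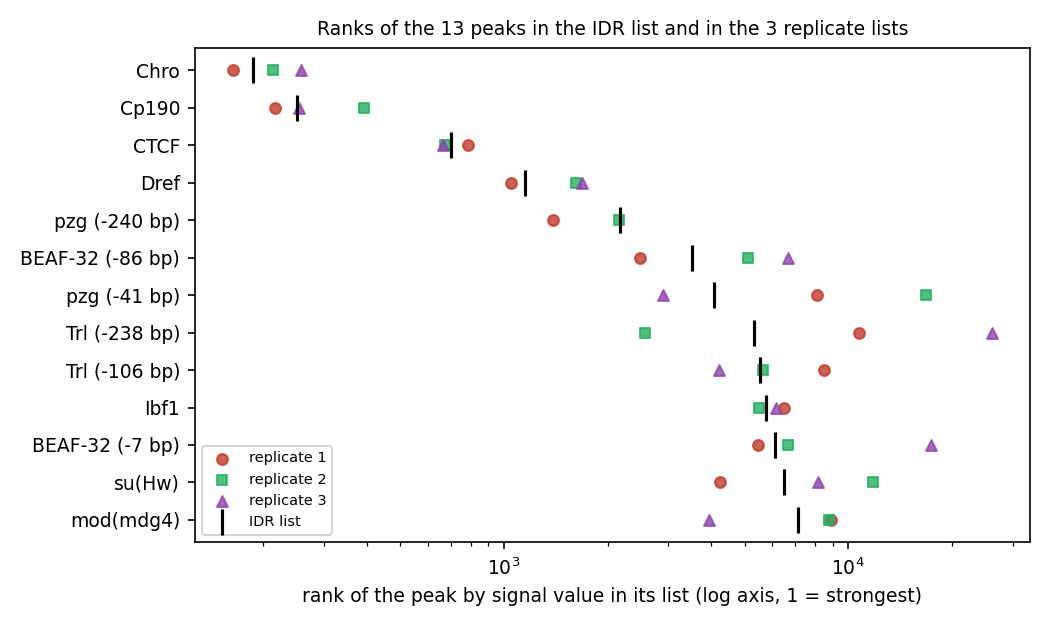
Rank by signal value (x axis, log scale, 1 = strongest) of the 13 peaks, 1 row a peak, in the IDR list (black bar) and in the lists of replicates 1, 2 and 3 (coloured points). The points of CTCF and Ibf1 nearly coincide, and those of the Trl peak at -238 bp run between ranks 2575 and 26115; the pzg peak at -240 bp has no point for replicate 3.

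mod(mdg4) and Trl had stronger peaks inside the gene than at their own promoters. The mod(mdg4) locus makes many protein isoforms by trans-splicing, in which a shared front part is joined to variable last exons made from separate transcription units, some of them on the other strand. These units are annotated as 23 pre-mod(mdg4) genes, 14 on the strand of mod(mdg4) and 9 on the other. All 23 had a summit of the IDR list within 500 bp of a TSS, beside 41.7% of all protein-coding genes. They share few starts: 7 distinct TSSs, of which 6 had a summit, and just 3 peaks, so the 23 genes are not 23 separate events. The strongest peak, at chr3R:21365490, had a signal of 681.4 (rank 648; ranks 853, 802 and 526 in replicates 1, 2 and 3) and lay 119 bp upstream of a TSS of 7 units of the other strand and 2 bp upstream of a TSS of 1 unit of the same strand. Another TSS of the same strand, used by 3 units, was 200 bp from this summit. The next, at chr3R:21373587, had a signal of 460.3 (rank 1463; ranks 2050, 1657 and 814), 12 bp upstream of the TSS of 3 units. The last, at chr3R:21360063, had a signal of 305.6 (rank 3080; ranks 2368, 4251 and 4343), between the TSS of 8 units of the same strand and that of 2 units of the other. All 3 exceeded the 152.4 of the mod(mdg4) promoter in the IDR list, and in every replicate the first 2 also ranked above it; the last did so in replicates 1 and 2 but not in replicate 3, where the promoter ranked 3947. The TSS 9272 bp downstream of the mod(mdg4) TSS, used by 2 units, had no IDR summit within 500 bp. A weak summit 901 bp downstream (signal 147.9, rank 7312) was near none of these starts.

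**Figure D4:**
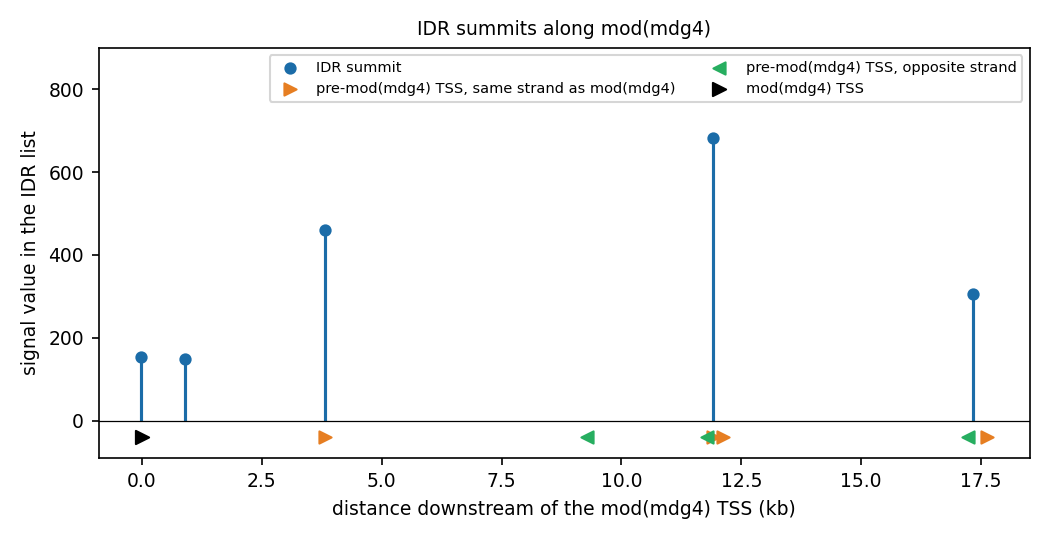
IDR summits along mod(mdg4), with the distance downstream of its TSS on the x axis (kb) and the signal value on the y axis (no unit). Triangles below the axis mark the TSSs of mod(mdg4) and of the pre-mod(mdg4) units, pointing in the direction of transcription; the 3 tallest summits, at 681.4, 460.3 and 305.6, stand at or between unit TSSs, above the 152.4 at the mod(mdg4) TSS.

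The strong peak inside Trl was at chr3L:14759519, in an intron and 1530 bp from the nearest TSS of Trl. Its signal was 1882 (rank 192 in the IDR list), close to that of Chro, with 1008, 427.1 and 443.0 in replicates 1, 2 and 3 and ranks of 183, 228 and 213. It was number 18 by strength among the 2783 IDR peaks that lay over 500 bp from every protein-coding TSS. A further intronic peak of Trl, 1148 bp from a TSS, had a signal of 226.7 (rank 4644). By the TSS rule Trl thus counted among the weakly bound genes, while a peak within the gene was nearly as strong as the strongest promoter peak of the 10.

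Recognition motifs of the encoded factors, read on either strand, were looked for in windows of 201 bp centred on the summits (100 bp to each side), and their shares were compared with all 7477 IDR windows and with windows of the same length around 19275 protein-coding TSSs. The DRE, TATCGATA, was in 2 of the 13 windows (15.4%), against 9.09% of IDR windows and 6.44% of TSS windows; these were CTCF and mod(mdg4), where it began 8 and 25 bp from the summit. CGATA, the core of the BEAF-32 site, was in 6 of the 13 (46.2%), against 38.7% of IDR windows and 37.1% of TSS windows, and each DRE holds it on both strands. Neither Dref nor BEAF-32 had the full DRE at its own peaks. GAGAG was in 3 of the 13 (23.1%), against 19.6% and 25.0%: the 2 Trl windows, with 3 and 11 matches, counted with overlaps, and the Dref window with 1. GGTCACACT, the site of M1BP, was in none of the 13, against 5.60% and 4.42%; GGTGGCGC, a core of the CTCF site, was in none, against 1.07% and 0.446%; and GCATACTTT, a core of the su(Hw) site, was in none, against 0.709% and 0.285%. With 13 windows, shares this small give no count to compare.

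Many of the strongest Trem peaks shared a word of DNA. The 8-letter word most concentrated in the 500 strongest IDR windows, relative to TSS windows, was CTGCCAAC, chosen after the data were seen and with the peaks of the 10 genes left out. It was in none of the 13 windows, against 28% of those 500, 2.80% of all IDR windows and 1.64% of TSS windows. The share depended on rank, at 74.0% of the 100 strongest, 30.0% of ranks 101 to 300, 2.00% of ranks 301 to 1000, 0.650% of ranks 1001 to 3000 and 1.07% of the rest. None of the 13 peaks was among the 100 strongest. Chro (rank 187) and Cp190 (rank 251) were in the next class, and the other 11 lay in classes where the word was rare in general, so its absence from them is what most IDR peaks of such ranks show. The closest words at Chro and Cp190 had 5 and 6 of the 8 letters, and the closest word at the Trl intron peak (rank 192) had 6. Words with at least 7 of the 8 letters were in 15.4% of the 13 windows, both at Trl, and in 45.6% of the 500 strongest. These 2 shares are not like for like, because of the 13 peaks only Chro and Cp190 have ranks within the first 500. No share was counted over all IDR windows or TSS windows, so nothing is concluded from the 15.4%. The 500 strongest windows chose the word, so their share is a description.

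**Figure D5:**
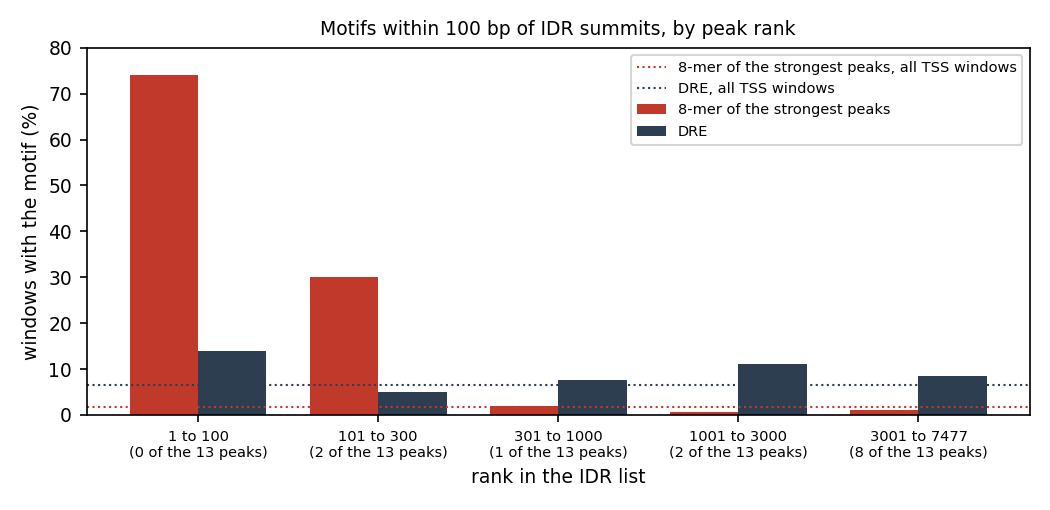
Share of IDR windows (y axis, percent, 201 bp around the summit) that hold the 8-letter word of the strongest peaks or the DRE, by class of rank in the IDR list (x axis), with the number of the 13 peaks in each class below the bars. Dotted lines give the share in all TSS windows; the word of the strongest peaks goes from 74.0% in the first class to 30.0% in the next and 2.00% after it, while the DRE stays between 5% and 14%.

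Base composition also varied among the peaks. The 13 windows had a median GC content of 36.8% (23.9% to 53.7%), beside medians of 34.8% over all IDR windows and 42.3% over TSS windows. Windows at Cp190, su(Hw) and the Trl intron each had 25.4% GC and that at Ibf1 had 23.9%, while the pzg summit at -41 bp had 53.7%, above 98.6% of IDR windows or equal to them. The AT-rich windows thus included both strong and weak peaks.

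Further genes of the same processes were taken from a list of 25 entries, of which 24 matched the annotation. Of these, 17 were bound (70.8%), beside 41.7% of all protein-coding genes, and 14 had a summit among the strongest peaks in all 3 replicates, beside 34.3%. Their strongest peaks had a median signal of 318.8, from 159.3 to 902.0, and 10 of the 24 (41.7%) had a summit among the stronger 50% of IDR peaks, beside 26.9% of all protein-coding genes. lolal, which encodes a BTB protein that interacts with the GAGA factor, had the highest at 902.0 (rank 404), below Chro and Cp190 and above CTCF. Next came shep (619.5), M1BP (554.6), whose product binds core promoters of housekeeping genes, the nucleosome remodelling gene E(bx) (498.5), pita (494.2), a zinc finger insulator protein gene, HIPP1 (485.8), whose product is a partner of insulator proteins, Top2 (436.2), encoding topoisomerase II, and rump (424.4). Signals were 318.8 at Iswi, the ATPase of remodelling complexes, 302.0 at Clamp, whose product binds GA repeats, 262.6 at ZIPIC and 220.7 at dwg, which both encode zinc finger insulator proteins. The weakest were Ibf2 (188.0, the peak shared with Ibf1), psq (186.0), Trf2 (174.7), Nurf-38 (167.7) and JIL-1 (159.3), a histone kinase gene of interbands. The JIL-1 window held both the DRE and CTGCCAAC, 1 match each, and the Trf2 window held 11 overlapping GAGAG matches. Elba1, Elba2 and Elba3, whose products form an embryonic insulator complex, their relative insv, and Topors, Skel and east had no summit of the IDR list in the window. Unlike the 10 genes, then, the wider list included 7 unbound members of 24, and the difference was not tested, since both lists were chosen by name.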

How the data were processed

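Each of the 3 biological replicates had 1 technical replicate, per the labels. One label gives the antibody as trem, while the description names anti-GFP. The authors deposited narrowPeak lists on dm6: 30000 peaks for each replicate, 30000 from the pooled replicates and 7477 in the IDR list, each derived from calls against a control, per the deposited file lists. For the aligner, the peak caller and the IDR settings, names and versions were not given in the sources used here. Each deposited list gives a signal value per peak. Its scale was not given in the sources used here, so replicates were compared by rank. The deposited −log10 q-value was not used for ranking. Read depth is unknown, which limits precision, so no counting interval could be given.

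TSSs came from Ensembl release 115 (BDGP6.54) and sequences from the RefSeq genome, which is the dm6 assembly too. A replicate summit within 100 bp of an IDR summit counted as the same peak, the strongest being taken. Coordinates count from 1. Python 3.11.15, pandas 2.3.3, numpy 2.4.6 and matplotlib 3.10.9 were used, and the counting was tested on simulated peaks. No test was run, because the 3 samples form 1 group and the genes were chosen by name. The genes, the related list and the motifs were chosen with earlier results of these data known. Named genes are the 10, every gene with a TSS within 500 bp of their peaks and the related list; Spred, Mgat4a, Tsen34 and the pre-mod(mdg4) units were added after their values were seen. Alternatives were other TSS windows, the gene start alone, stronger peaks, the pooled list, other match distances and leaving out each replicate.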

Additional observations from a re-analysis of the deposited data

How the results depend on the processing

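Of 33 alternatives, 28 gave a count, or in the case of Chro a signal value, within 1.5 times that reported. This range is wide, and 7 of the 10 genes falls within it. Several of the 28 could not have moved out of it. A window of 1000 bp cannot lower a count of 10 of the 10 genes. A match distance of 200 bp, or leaving out a replicate, cannot lower the 12 of 13 matched peaks. The tally of 28 therefore says little of how stable the counts are. With the stronger 50% of the IDR peaks, 6 of the 10 genes were bound, beside 3761 protein-coding genes and 10 related genes. Requiring a match among the strongest peaks of the remaining replicates, with each replicate left out in turn, gave 6 to 7 of the 10 genes, against 33.4% to 34.5% of all protein-coding genes. Without replicate 1, su(Hw), mod(mdg4) and pzg were lost. Without replicate 2, 6 genes stayed and Trl was lost as well as these. Without replicate 3, su(Hw), mod(mdg4) and Trl were lost. With only the strongest replicate peaks, 6 of the 13 peaks had a summit in every replicate, beside 60.1% of all IDR peaks, and with the whole lists 12 of the 13 did, beside 86.1%. With a match distance of 50 bp in the whole lists, 9 of the 13 did, and the share of all IDR peaks was not counted at that distance. The pooled list gave 10 of the 10 genes, against 58.8% of all protein-coding genes, and 21 of the 24 related genes. The strongest signal, 1949 at Chro, was the same under each TSS alternative. Its summit lies 61 bp from the gene start, so none of these alternatives could lose it. Read depth, which is unknown, limits how far the weak peaks of su(Hw), mod(mdg4), Ibf1 and Trl can be told from background. No paired analysis was possible because all samples form 1 group and no result comes from a test.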
